A study of Rattus norvegicus with 12 samples.

Results

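Guanylate-binding proteins (Gbp) and immunity-related GTPases were followed in rat fibroblasts before and after growth as a tumour. The 7 listed genes were Gbp2, Gbp4, Gbp5, Gbp7, Igtp, Irgm and Ifi47. They were picked from these same arrays because an earlier comparison of Tumor with A16 cells had shown lower intensities for genes of these families. Their Tumor against A16 values and calls are therefore given below as a description, and the calls are not used as a test of the members. Of the 7, 5 had a probe set annotated to that gene alone, out of 14217 such genes on the array, and these 5 genes were read by 6 probe sets. Gbp5 and Ifi47 had none and were not analysed here, and 1 further probe set that carries Igtp among 3 symbols was not used.

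A16 cells were F111 cells, a line of normal fibroblasts from the Fischer rat, left to adhere to plastic for 16 h. Tumor cells were cultured from tumours that arose in nude mice after subcutaneous injection of F111 cells previously held in suspension for 16 h (NA16). The labels place the Tumor samples 3 months after injection, so time and growth in an animal differ between the groups as well. Both groups therefore derive from 1 cell line, but they are not genetically alike. The study's karyotypes show a rearranged chromosome, the one that carries the Gbp cluster, in more of the tumour-derived than of the adherent cells, and its part in the values below was not tested. The labels name the same medium and serum level for all cells, whereas the study's methods give more serum for the tumour explants. The explants were released from tissue grown in a mouse, so host cells may have been present in them. Each group had 3 Affymetrix rat arrays, labelled as biological replicate 1 with technical number 1, as technical replicate 2, and as biological replicate 2, here called replicate 1, technical replicate 2 and replicate 2. Technical replicate 2 carries no biological number and was averaged with replicate 1, which left n = 2 replicates per group. The labels call replicates 1 and 2 biological but do not say that they were separate cultures or animals, so errors cover only the spread between these samples.

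Guanylate-binding proteins and immunity-related GTPases are large interferon-inducible GTPases of the dynamin type. In cells exposed to interferon they gather on the membranes of vacuoles that hold parasites or bacteria and help to break these open. Among the immunity-related GTPases, the Irgm proteins sit on the cell's own membranes and hold the effector proteins inactive there. Transcription of both families is driven by interferon-gamma through the gamma-activated site and by type I interferon through the interferon-stimulated response element, which a complex with IRF9 binds.

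Every measured member was lower in Tumor than in A16 cells. The Tumor intensity left was between 6.72% of the A16 value for Gbp2 and 37.6% for Irgm. All values below are log2 of the RMA intensity, and SE is the moderated standard error of the limma fit over 31042 probe sets. The labelled cell type was checked first. Of 12 fibroblast markers measured, vimentin (Vim) and Pdgfra did not pass the test (differences -0.10 ± 0.11 and -0.06 ± 0.12), while 5 fell, led by the collagen gene Col1a1 (-3.46 ± 0.20). The matrix proteoglycan genes Dcn and Lum, also markers, were dim in both groups (4.69 and 5.22 in A16, 5.14 and 4.66 in Tumor). Array controls also followed the groups. The poly-A spike transcripts read 7.65 to 8.15 on the A16 arrays and 4.75 to 4.92 on the Tumor arrays, and the 3′ minus 5′ difference of beta-actin probe sets was 0.64 to 0.71 in A16 and 2.25 to 2.37 in Tumor. Labelling, RNA state and group cannot be told apart in this design, nor can fewer expressing cells and less RNA per cell.

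Among the guanylate-binding proteins, Gbp2 showed the widest gap between the groups. Gbp2 is one of the family members that carry a lipid anchor and coat pathogen vacuoles. Its probe set (1368332_at) read 10.51 on A16 replicate 1, 10.42 on technical replicate 2 and 11.15 on replicate 2, against 7.12, 6.90 and 6.82 on the same order of Tumor arrays. The difference was -3.90 ± 0.23 (SE, n = 2), or 14.9-fold lower in Tumor. The lowest A16 array stood 3.30 above the highest Tumor array, while the widest range within a group was 0.73. A16 replicate 2 was the highest array of its group, and this held for all 6 member probe sets.

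Gbp7, a member of the same chromosome 2 cluster, read 7.20, 7.19 and 7.36 in A16 and 4.41, 4.59 and 4.38 in Tumor (1382950_at), a difference of -2.84 ± 0.12 or 7.15-fold. Its arrays were the closest to each other within groups, with ranges of 0.16 in A16 and 0.21 in Tumor. PLIER, the other summary deposited for each array, gave Tumor values of 5.13, 4.24 and 4.21, close to its floor of 16 on the linear scale, so that the size of the Gbp7 difference depends on how the floor is treated. Gbp4, for which less is known, read 8.22, 8.27 and 8.54 in A16 and 6.19, 5.75 and 5.82 in Tumor (1385051_at). Its difference was -2.49 ± 0.14, or 5.63-fold, and the groups lay 2.03 apart at their nearest arrays.

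Of the immunity-related GTPases, Igtp was read by 2 probe sets. The protein, also known as Irgm3, belongs to the regulatory Irgm class. The brighter probe set (1397304_at) read 9.22, 9.24 and 9.45 in A16 and 6.60, 6.30 and 6.65 in Tumor. The dimmer (1396163_at) read 8.35, 8.51 and 8.76 in A16 and 5.87, 5.56 and 5.97 in Tumor. Their differences, -2.79 ± 0.14 and -2.75 ± 0.16, lay closer to each other than 1 SE of either.

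Irgm, the rat counterpart of mouse Irgm1 and a regulator that protects lymphocytes exposed to interferon-gamma, differed least. It read 7.48, 7.67 and 8.07 in A16 and 6.20, 6.68 and 6.39 in Tumor (1391489_at). The difference was -1.41 ± 0.18, or 2.66-fold, and its nearest arrays were 0.80 apart, the narrowest separation among the member probe sets. With RMA, Irgm was also the only measured member under 5-fold.

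**Figure D1:**
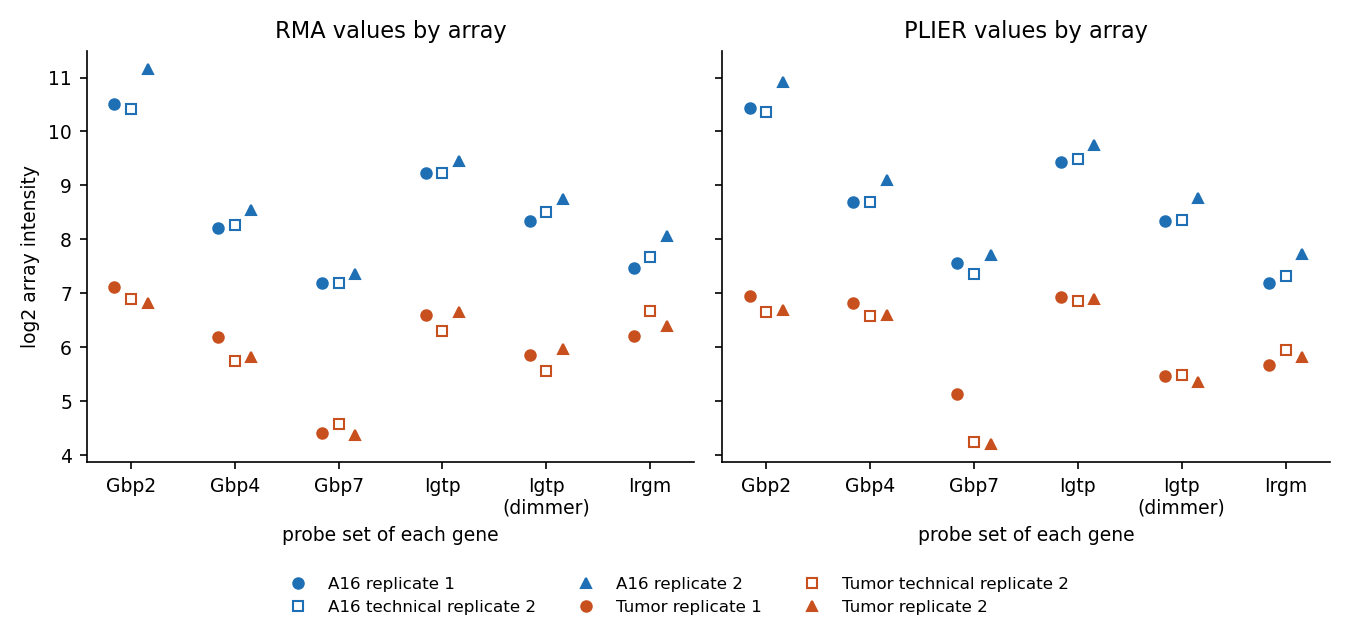
Log2 array intensity (y axis) of the 6 member probe sets (x axis), after RMA on the left and PLIER on the right, with 1 point per array, A16 in blue and Tumor in red. On each of the 6 probe sets every A16 array lies above every Tumor array in both panels, with the narrowest RMA gap, 0.80, at Irgm and the widest, 3.30, at Gbp2.

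All 6 member probe sets passed the call used here, an adjusted p under 0.05 in limma with at least a 2-fold difference, where 6.39% of all tested probe sets were called lower. As genes, by the brightest probe set, 5 of 5 were lower, where 5.44% of all genes were called lower and 5.45% higher. On all 6 probe sets every A16 array was above every Tumor array, which held for 25.0% of all probe sets. The members were selected on this contrast, so nothing is read from these counts. The median difference of the 5 genes was -2.79, beside 0.03 over all 14217 genes. With PLIER the median was -2.72 and the same 6 probe sets were lower, the folds being 15.0 for Gbp2, 4.74 for Gbp4, 8.75 for Gbp7, 6.57 and 8.79 for the probe sets of Igtp, and 3.20 for Irgm.

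The members stood at different depths in the list of falling genes. Ranked by difference, Gbp2 was number 32 of the 14217 genes, followed by Gbp7 at 87, Igtp at 91, Gbp4 at 120 and Irgm at 375. The step in log2 difference from Gbp7 to Igtp was smaller than the SE of either, and the other steps in this order were larger than both SEs. Over 12 other ways of processing the arrays, Gbp2 ranged from -4.24 to -3.55, Gbp4 from -2.64 to -2.24 and Irgm from -2.0 to -1.16. Igtp ranged from -2.90 to -2.68 on its brighter probe set, the narrowest span of the 6, and from -3.70 to -2.59 on its dimmer one, a span exceeded only by Gbp7. Gbp7 ranged from -4.97 to -2.76, and its lower end came from PLIER with the floor of 16 taken off.

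**Figure D2:**
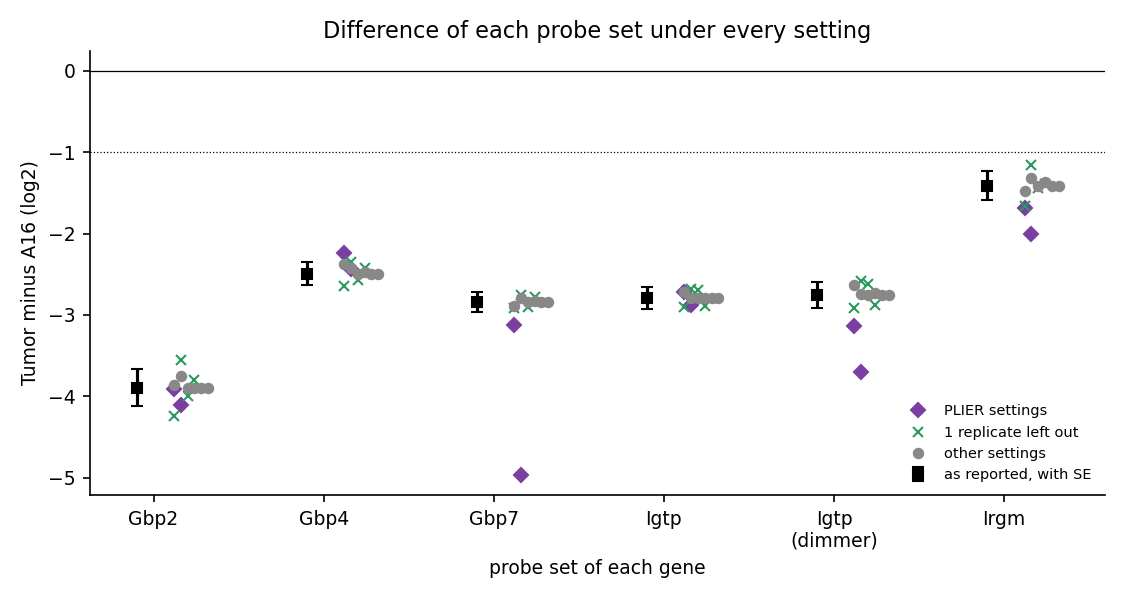
Tumor minus A16 difference in log2 intensity (y axis) of each member probe set (x axis). Black squares with bars are the reported values with SE, and the other marks are the 12 alternatives, with 0 as a solid line and a 2-fold fall as a dotted line. Every mark lies below the dotted line, the nearest being Irgm at -1.16 and the farthest Gbp7 at -4.97.

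The genes whose 6-array profile lay nearest to that of Gbp2, each centred on its own A16 mean, were found by Euclidean distance among 14217 genes. They were the homeobox gene Hoxd10 (distance 0.47), the chemokine gene Cxcl11 (0.48), the growth factor gene Tgfb3 (0.53), the matrix proteoglycan gene Ogn (0.53) and the carbonic anhydrase gene Car3 (0.55). Their differences were -4.05, -3.81, -3.83, -3.95 and -4.01, close to the -3.90 of Gbp2. Cxcl11 was the only one of the 5 on the interferon lists described below. The distance mostly measures the size of the step between groups, since 6 arrays in 2 groups hold little other pattern.

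Other members of the same families were few on the array. Of 16 listed, 2 had a probe set of their own. Irgm2, another regulatory GTPase, fell with the members. It read 10.29, 10.40 and 10.37 in A16 and 7.86, 7.74 and 7.87 in Tumor, a difference of -2.53 ± 0.11 (limma adjusted p = 2.86e-05), with no overlap of the groups. Igtp and Irgm2 are close relatives, and hybridisation of the one to the probes of the other was not tested. Irgq, a divergent relative without known induction by interferon, did not pass the test (0.09 ± 0.11, adjusted p = 0.585).

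In the RefSeq order of the GRCr8 assembly the members lie in 3 places. Gbp5, Gbp7, Gbp4 and Gbp2 stand next to each other on chromosome 2, followed by Gbp1 and Gbp3. Irgm and Ifi47 lie together on chromosome 10, and Igtp lies beside Irgm2 elsewhere on that chromosome. All genes inside these places that had a probe set were lower. All of them but Irgm2 are members, which were selected on this contrast, so this is a description and is not compared with the flanks. The genes on either side were mixed, where 5.44% of all genes were called lower and 5.45% higher. After Gbp3 the next 5 genes with a probe set (Kyat3, Gtf2b, Pkn2, Lmo4 and Hs2st1) were not called, with differences from -0.43 to 0.92. On the other side of the cluster, Pdlim5 fell (-2.26 ± 0.13), Unc5c fell (-1.91 ± 0.12) and Pdha2 rose (3.74 ± 0.15), while Rap1gds1 (-0.11) and Tspan5 (0.54) were not called.

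Around Irgm and Ifi47, 1 of 10 neighbours was called, Flt4, a receptor of lymphatic growth factors, which fell (-1.27 ± 0.18). Around Igtp and Irgm2, 2 of 10 were called, and they went in opposite directions: Sh3bp5l fell (-1.63 ± 0.16) and Lypd8 rose (1.01 ± 0.16). The nearest measured genes on either side of the pair, Mrpl22 (0.23 ± 0.16) and Zfp692 (-0.05 ± 0.11), did not pass the test.

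**Figure D3:**
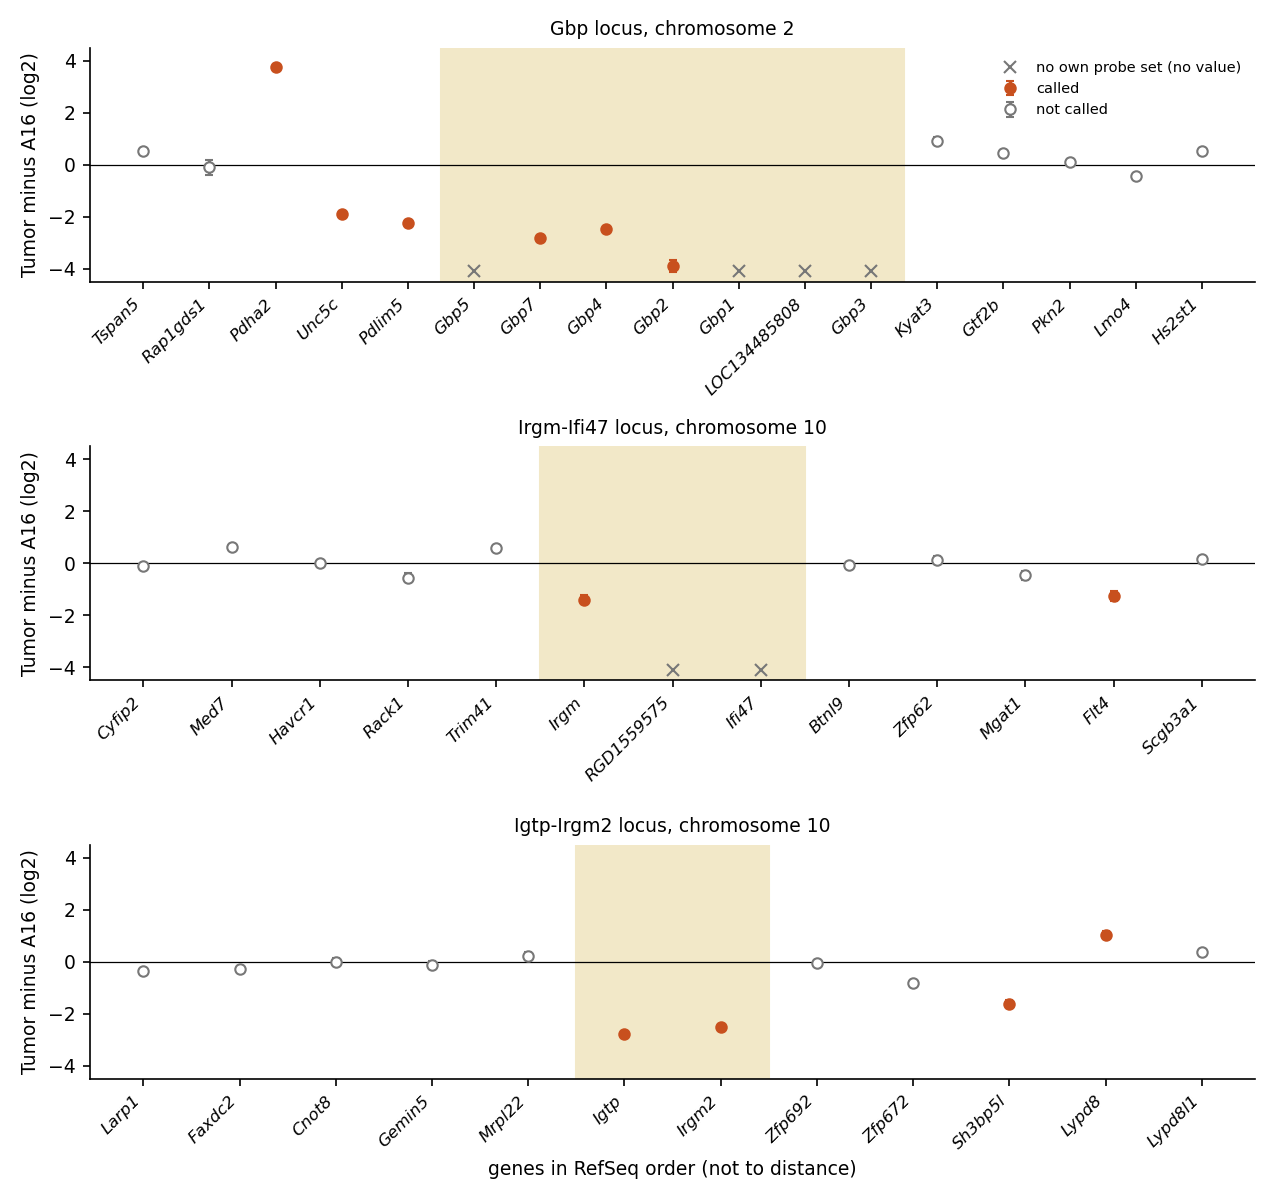
Tumor minus A16 difference in log2 intensity with SE (y axis) for the members and the 5 nearest measured genes on each side, in RefSeq order and not to distance (x axis), in 3 panels for the 3 places; the shaded band holds the cluster itself. Filled points passed the call, open points did not, and crosses at the foot mark genes without a probe set of their own and carry no value. The filled points inside the bands all lie below 0, from Gbp2 at -3.90 to Irgm at -1.41. All of them but Irgm2 are members, which were selected on this contrast, so no comparison with the flanking genes is drawn. The flanking genes lie on both sides of 0.

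The promoters of the members share a short element. The RefSeq table gives 300 bases for each gene, 250 before its start and 50 after. They were searched on both strands for the core of the interferon-stimulated response element, written GAAANNGAAA, which interferon regulatory factors bind. Gbp2, Gbp4, Gbp5, Gbp7, Igtp and Irgm held it and Ifi47 did not, so it was present in 5 of 5 measured members and 6 of 7 listed ones. Of 33469 promoters in the table, 1312 held it (3.92%). It is shown with 25 bases on either side, the core in capitals, in the direction of the gene. The members were picked as families that interferon induces through this element, and several are neighbouring relatives. Its presence in them is therefore a description and no independent finding.
Gbp2 (GRCr8 chr2:234005671-234005730, + strand): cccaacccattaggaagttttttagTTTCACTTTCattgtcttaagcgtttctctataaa
Gbp4 (chr2:233978451-233978510, + strand): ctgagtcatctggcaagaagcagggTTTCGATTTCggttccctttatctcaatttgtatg
Gbp5 (chr2:233910918-233910977, + strand): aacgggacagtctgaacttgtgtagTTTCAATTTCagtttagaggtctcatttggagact
Gbp7 (chr2:233948823-233948882, + strand): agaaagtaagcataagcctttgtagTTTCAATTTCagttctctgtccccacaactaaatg
Igtp (chr10:42874919-42874978, + strand): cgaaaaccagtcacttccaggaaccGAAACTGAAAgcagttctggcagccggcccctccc
Irgm (chr10:33742578-33742637, - strand): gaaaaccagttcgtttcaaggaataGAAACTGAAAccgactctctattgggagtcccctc
Irgm2 (chr10:42889843-42889902, + strand): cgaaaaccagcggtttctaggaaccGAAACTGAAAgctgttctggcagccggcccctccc

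In the windows shown, the guanylate-binding protein genes and the immunity-related GTPases held the core in opposite orientations. In the 4 listed Gbp promoters it read on the strand opposite to the gene (TTTC first), and in Igtp, Irgm and Irgm2 on the strand of the gene (GAAA first). Gbp1, which is not a member, departs from this, since 1 of its 2 RefSeq promoters holds 3 matches with GAAA first and the other holds none. The promoter of Gbp6, on chromosome 14 and also not a member, holds no match to the core. The centre of the core lay 5 bases before the start in Gbp4, 26 in Gbp2, 29 in Irgm, 36 in Gbp7, 51 in Gbp5, 97 in Irgm2 and 98 in Igtp. Igtp and Irgm2 matched at 54 of the 60 positions shown (90.0%), and Igtp and Irgm at 33 (55.0%). Within the Gbp genes the windows matched at 20 to 33 positions, most between Gbp5 and Gbp7, which have the same core letters.

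The gamma-activated site, written TTCNNNGAA, is palindromic and was found in 8.87% of all promoters. Of the measured members Gbp7 held 2 matches, Igtp 1 and Irgm 1, while Gbp2 and Gbp4 held none in these 300 bases. Of the members without a probe set, Ifi47 held 2 matches and Gbp5 none. In Igtp, Irgm and Irgm2 the site stood immediately before the response element core with a gap of 2 bases. This arrangement was noticed in the sequences after they were read. Its 21 bases are shown here in the direction of the gene, which is the - strand for Irgm and the + strand for the others shown. Letters of both motifs are in capitals and free positions in lower case.
Igtp (GRCr8 chr10:42874933-42874953): TTCcagGAAccGAAActGAAA
Irgm (chr10:33742603-33742623): TTCaagGAAtaGAAActGAAA
Irgm2 (chr10:42889857-42889877): TTCtagGAAccGAAActGAAA
Parp14 (chr11:78408047-78408067): TTCcagGAAatGAAAgtGAAA

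The joined arrangement occurred in 7 of the 33469 promoters (0.0209%). They belonged to Igtp, Irgm, Irgm2, Parp14, Stra8, Ifgga2l2 and an unnamed locus whose match is the same stretch as that of Igtp read from the other strand. Of these 7, 4 had a probe set. The arrangement was noticed in Igtp, Irgm and Irgm2, which are lower as described above, so only the remaining gene was not used in noticing it. That gene is Parp14, a mono-ADP-ribosyltransferase, and it fell. It read 10.00, 10.50 and 10.18 in A16 and 8.26, 8.21 and 8.22 in Tumor, a difference of -1.99 ± 0.11 (limma adjusted p = 6.63e-05). The joined arrangement contains the response element core, and most targets of type I interferon fell as well (21 of 22 measured, described below). A single further gene cannot separate the arrangement from this wider fall, so nothing is read from the value of Parp14. Any part of the arrangement in that value was not tested. A match to these letters is a description of sequence, and binding was not measured here.

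**Figure D4:**
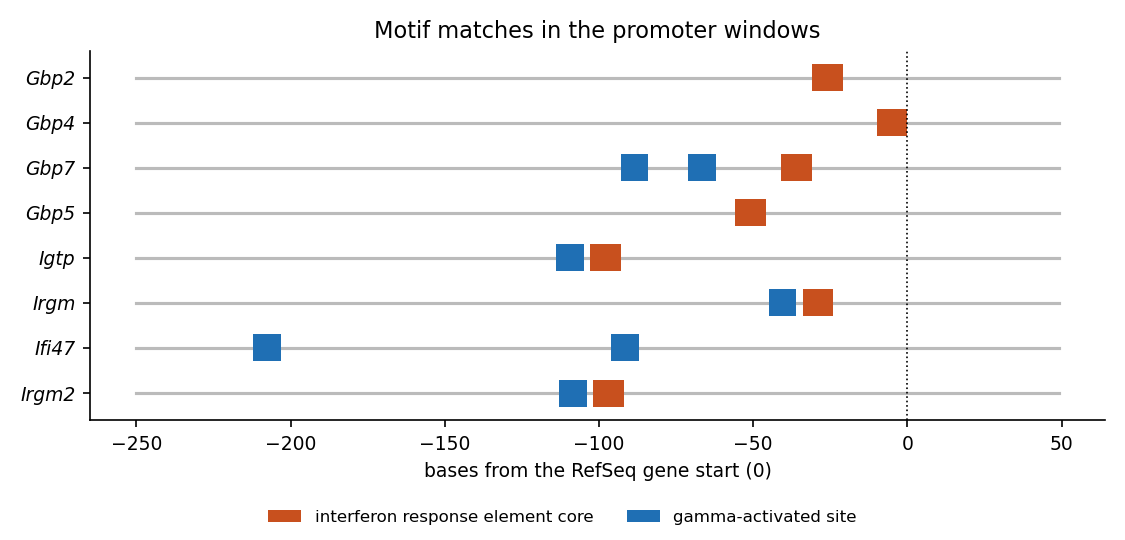
Positions of motif matches in the promoters of the 7 listed genes and Irgm2, in bases from the RefSeq gene start (x axis, the start at 0), 1 line per gene; red blocks are the interferon response element core and blue blocks the gamma-activated site. Red and blue blocks stand side by side in Igtp, Irgm and Irgm2, at different distances from the start, and Ifi47 has 2 blue blocks and no red one.

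The core was then set against the array over genes that are not members. Of 11695 such genes with a promoter in the table, 603 fell (5.16%). Of the 371 that hold the core, 42 fell (11.3%) and 20 rose (5.39%), and their median difference was 0.01. Outside the pathway lists described next, 27 of 345 genes with the core fell (7.83%), beside 4.95% of all genes there. Of 877 genes with a gamma-activated site, 49 fell (5.59%). Most genes with either motif were thus not called lower, and these shares carry no test.

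The regulators upstream of the members were mostly not called. Of 20 receptors, kinases and transcription factors measured, 2 fell and 0 rose at the call by limma, and the median was -0.23. Of the 20, 11 had an unadjusted p under 0.05. The same 11 had an adjusted p under 0.05, most of them short of a 2-fold difference. Among these 11 only Tyk2 (0.47 ± 0.12) and Irf2 (0.72 ± 0.17) were higher in Tumor on their brightest probe sets. Irf9, the DNA-binding subunit of the type I interferon complex, fell by 3.57 on the log2 scale (SE 0.14, adjusted p = 2.24e-05). It read 10.39 on average in A16 and 6.81 in Tumor, and its other probe set gave -2.95. Ifnar1, a type I interferon receptor chain, fell on its brightest probe set (-1.79 ± 0.15, adjusted p = 0.000331), but its 6 probe sets ranged from -1.79 to 0.42 and disagreed in sign. The positive ones (0.42 and 0.24) were not called, and all its others were called lower.

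Several regulators are named for their role, outside the rule for naming genes and with their values known. The interferon-gamma receptor chains Ifngr1 (-0.76 ± 0.12, adjusted p = 0.00336) and Ifngr2 (-0.87 ± 0.14, adjusted p = 0.00437) passed the adjusted p but not the 2-fold limit on their brightest probe sets, and so did Stat2 (-0.86 ± 0.16, adjusted p = 0.00871) and Irf8 (-0.77 ± 0.11, adjusted p = 0.00257). For Ifngr2 the call depends on the probe set and the summary, since its dimmer probe set fell (-2.43 ± 0.11, adjusted p = 3.88e-05) and PLIER called the brighter one lower (-1.06). For Ifnar2 and Stat3 it also depends on the probe set. Their brightest were not called (-0.57 and -0.36), but another probe set of each fell by limma (-1.42 ± 0.17, adjusted p = 0.00153, and -1.92 ± 0.17, adjusted p = 0.000444). Jak1 (0.25 ± 0.11), Jak2 (-0.11 ± 0.15) and Irf1 (0.13 ± 0.15), an interferon-gamma-induced factor that binds the response element, did not pass. The genes of interferon-gamma itself (Ifng, 0.18 ± 0.12) and interferon-beta (Ifnb1, -0.05 ± 0.13) did not pass either. Both were dim, Ifng at 4.24 in A16 and 4.42 in Tumor, and Ifnb1 at 4.66 and 4.61. The bacterial Trp array controls read 4.21 to 4.30 in A16 and 4.21 to 4.22 in Tumor. At such intensities a missing call says little about either gene. Of 13 inhibitors of the pathway, 2 fell, Usp18 (-2.14 ± 0.12, adjusted p = 6.20e-05), which blocks the type I receptor, and Pias4 (-1.51 ± 0.24, adjusted p = 0.00416). The dimmer probe set of Pias4 did not pass (-0.79 ± 0.31, limma adjusted p = 0.105). With RMA 0 inhibitors rose, whereas PLIER called 2 higher, Socs2 (1.01) and Ptpn1 (1.60). The median of the inhibitors was 0.03, and Socs1 (-0.03) and Socs3 (-0.25), the feedback inhibitors of the Jak kinases, did not pass.

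Targets of type I interferon fell almost throughout. Of 22 measured, 21 fell and 0 rose by limma (21 had an unadjusted p under 0.05), and the median was -2.47, beside -2.79 for the members. The antiviral gene Rsad2 fell by 6.27 on the log2 scale, or 77.0-fold (SE 0.15, adjusted p = 7.59e-06). The receptor-transporting protein gene Rtp4 (-4.79 ± 0.11), the RNA-binding Ifit3 (-4.66 ± 0.13) and the oligoadenylate synthetase Oas1a (-4.47 ± 0.13) fell next most. Of the 17 of these genes with a promoter in the table, all fell, and 11 of the 17 held the response element core. The list was written with results of these arrays known, and is no independent evidence of a direction.

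Other targets of interferon-gamma were divided at the call, though most differences were below 0. Of 21 measured, 5 fell, 2 rose and 14 were not called, with a median of -0.37. Some of those not called, named outside the rule, were dim in both groups. They include Cxcl9 (4.95 in A16, 4.84 in Tumor), Cd74 (5.29 and 5.15) and Ido1 (5.35 and 5.43). Whatever the call, 17 of the 21 differences were below 0, and 12 genes had an adjusted p under 0.05 by limma. The chemokine genes Cxcl10 (-4.59 ± 0.13, 24.1-fold) and Cxcl11 (-3.81 ± 0.12, 14.0-fold) and the galectin-binding Lgals3bp (-3.20 ± 0.11) fell most. The complement protease C1s rose (2.79 ± 0.11). Among immunoproteasome subunits, named outside the rule, Psmb10 fell (-2.31 ± 0.13) and Psmb8 rose (1.68 ± 0.13), so that subunits of 1 complex went in opposite directions, and Psmb9 did not pass the 2-fold limit (-0.85 ± 0.17). Of the 17 genes of the list with a promoter, 9 held the core and 3 of those 9 fell.

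Of 16 dynamin superfamily GTPases, the wider family of the members, 3 fell and 1 rose, with a median of -0.29. The antiviral, interferon-induced Mx2 (-4.76 ± 0.11, 27.1-fold) and Mx1 (-2.81 ± 0.20) fell, although a dimmer probe set of Mx2 gave -0.06. Ehd2, a coat protein of caveolae, fell (-1.61 ± 0.15) and Dnm1, a dynamin of endocytosis, rose (1.24 ± 0.14). Named outside the rule, the mitochondrial and endoplasmic reticulum members (Opa1, Mfn1, Mfn2 and the atlastins) were not called by their brightest probe sets. Dimmer probe sets of the atlastin genes Atl2 (-1.43 ± 0.12) and Atl3 (-1.18 ± 0.17) fell, and those of Opa1 disagreed in sign (-0.74 and 0.41).

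The partners through which the members act had medians near 0. Of 14 autophagy conjugation factors, which load immunity-related GTPases onto vacuoles, limma called 0 (4 had an unadjusted p under 0.05, and PLIER also gave 0), and the median was -0.08. Of 8 protein prenylation enzymes, which attach the lipid anchor of some guanylate-binding proteins, limma called 0 (3 had an unadjusted p under 0.05, PLIER 0), with a median of 0.22. Of 12 inflammasome and ubiquitin partners, 1 fell and 2 rose, with a median of 0.06 over genes that went both ways. Casp1, the inflammasome protease that acts downstream of guanylate-binding proteins in infected cells, rose (3.13 ± 0.11, 8.75-fold, adjusted p = 1.90e-05), as did its adaptor Pycard (1.58 ± 0.14, 2.99-fold). Rnf213, an interferon-induced ubiquitin ligase, fell (-2.51 ± 0.18), while Casp4 (-0.66) and Gsdmd (-0.25), named outside the rule, were not called. Over the 9 lists together, 35 of 128 genes fell and 5 rose, beside 5.44% and 5.45% of all genes.

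**Figure D5:**
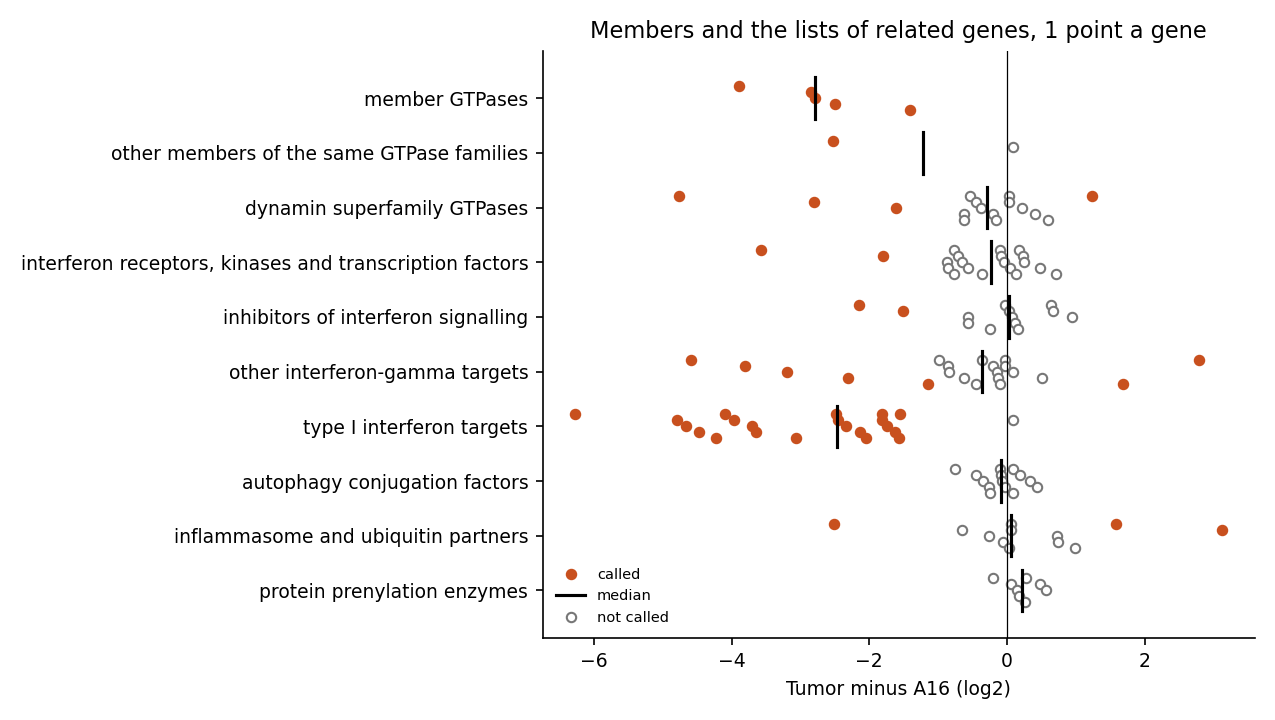
Tumor minus A16 difference in log2 intensity (x axis) for the 5 member genes and the genes of the 9 lists (rows), 1 point per gene by its brightest probe set, filled where called and open where not, with a bar at the median. The 5 members (median -2.79) and 21 of the 22 type I interferon targets (median -2.47) lie to the left of 0. Of the 21 interferon-gamma targets 17 lie to the left of 0, many of them close to it (median -0.37). The medians of the other lists with over 2 genes lie between -0.29 and 0.22.

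Markers of other cells moved little or upwards in Tumor. Of 12 macrophage markers 2 rose, Csf1r (3.14 ± 0.14) and Cd68 (1.07 ± 0.12), while the defining genes Ptprc (-0.07 ± 0.11) and Adgre1 (0.14 ± 0.12) did not pass, and the summed intensity of the list was 1378 to 1544 in A16 and 1777 to 1853 in Tumor. Of 10 T and NK cell markers limma called 0 (0 also at an unadjusted p under 0.05, PLIER 0), with sums of 481 to 525 in A16 and 480 to 523 in Tumor. Of 3 B cell markers 1 rose (Blnk, 2.96 ± 0.11), of 6 epithelial markers 1 rose (Krt8, 1.5 ± 0.13), and of 7 endothelial markers limma called 0 (3 at an unadjusted p under 0.05, PLIER 1). The summed fibroblast markers were 86310 to 95200 in A16 and 54200 to 55420 in Tumor, lower in the same direction as the members. The part of these shifts in the values of the members was not tested. Host cells would be mouse cells, and how well these rat probe sets read mouse RNA was not tested either. The marker counts therefore cannot show whether host cells were present.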

How the data were processed

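RNA from 2 groups was hybridised to 6 arrays, and each array has an RMA and a PLIER record (12 records). Per the study's methods scans were normalised in Avadis. RMA and PLIER come from the submitters' processing notes, their versions being not given in the sources used here. Values deposited by the authors are array intensity on a linear scale, with RMA medians of 98.0 to 100.1 and a PLIER floor of 16, and log2 was taken of them here. The plan had assumed RMA values already in log2. The number of arrays limits the precision. Technical replicate 2 was averaged with replicate 1, so n = 2. Replicates correlated at 0.991 in A16 and 0.995 in Tumor.

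The 31042 probe sets left after 57 controls were fitted with limma 3.58.1 in R 4.3.3 (lmFit, eBayes, two-sided, Benjamini-Hochberg over all). A call needed an adjusted p under 0.05 and at least a 2-fold difference. The fit was tested on simulated data. Platform annotation gave 20826 probe sets 1 symbol, 436 several and 9780 none, and the brightest by mean RMA stood for a gene. Of the 20826, 20758 matched RefSeq gene identifiers (GRCr8), from which promoter sequences and gene order came. Named genes were all members, all measured members of the same families, every called regulator, up to 4 called genes of each other list by size, and the 5 genes nearest to Gbp2 in profile; other genes were named for their role, position, motif or use as markers, with their values known. Members, lists and tests were chosen with earlier results of these data known.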

Additional observations from a re-analysis of the deposited data

How the results depend on the processing

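Across 12 alternatives the 6 member probe sets gave 72 values, all of them negative. Of the 72, 15 lay further from the reported difference than its SE. The members were selected on this contrast, so this is a description and no sign of stability. The median of the member genes with the replicate block was -2.79, and that fit called 1715 probe sets higher and 2035 lower; the correlation of deviations between samples of the same number was 0.12, and the labels do not say what the numbers share. Without A16 replicate 1 the number of probe sets lower was 2502, and without A16 replicate 2 it was 1684. PLIER with an offset of 1 raised the probe sets higher to 3113, and the genes of the pathway lists called higher from 5 to 10, or to 9 with PLIER as deposited. The methods' t-test called 1607 higher and 1493 lower at their threshold, and 4 higher and 8 lower after Benjamini-Hochberg. Of 234 counts per list, 6 moved by over 1.5 times. The cause of these shifts was not tested. Intensity over background limits Gbp7, whose Tumor values lie near the PLIER floor.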
